A study of Sorghum bicolor with 8 samples.

Results

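Regenerated sorghum leaves were compared with Callus I, the first of 3 callus types that were separated from cultured immature embryos. The comparison took the 2 Leaf and 2 Callus I libraries of the 8 libraries in the series. Genes entered it with at least 1 FPKM (a count of sequenced fragments scaled to the length of the transcript and to the size of the library, the level the authors deposited) in at least 2 of these 4 libraries. This held for 21394 of 34129 genes, and all differences are Leaf minus Callus I.

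Both tissues were wild type and of the line Hiro-1. The Leaf libraries came from leaves that had regenerated from Callus II on differentiation medium at 25 °C, where a day held 16 h in light (2000 lx) and 8 h in the dark. The Callus I libraries came from embryos of 1 to 2 mm, collected 13 to 15 days after flowering. These had spent 3 weeks on callus induction medium without light at 25 °C, and the separated callus was subcultured for another 20 days. The leaves therefore did not descend from Callus I. Tissue, callus of origin, medium and light differ together and cannot be told apart here. Callus II and Callus III, with 2 libraries each, were grown as Callus I was, and their levels are given beside the comparison.

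Callus is a mass of dividing, unspecialised cells that plant tissue forms in culture on medium with growth regulators. A leaf holds mature cell types such as mesophyll, bundle sheath, epidermis and veins, and in the light its plastids become chloroplasts that carry out photosynthesis. In bulk tissue, fewer cells of a type and less RNA per cell cannot be told apart. The deposited files pair no identifier with a gene name, and no gene in them had a description, so the labelled tissues could not be checked against marker genes. Genes are given by identifier and position, with the RefSeq symbol where a locus had a unique match by position.

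The libraries of Leaf were more alike than those of Callus I. Between replicates, 75 of the 21394 genes (0.351%) lay 2-fold or more apart in Leaf and 915 (4.28%) in Callus I, on the log2(FPKM + 1) scale. The correlation across genes was 0.993 between the Leaf replicates and 0.974 between the Callus I replicates, and it ran from 0.417 to 0.443 between a Leaf and a Callus I library. These correlations are over genes, which are not independent replicates. Genes above 0 numbered 26617 and 26787 in Leaf and 25863 and 24760 in Callus I. Sums of FPKM were 595109 and 605150 in Leaf and 710648 and 654591 in Callus I. Read totals are not given. Steps in the lowest values put depth at 1.268 and 1.622 times Callus I replicate 1 in the Leaf libraries and at 1.03 times in Callus I replicate 2. Within a tolerance of 0.5%, the steps held 8.5% and 9.5% of the genes under 0.2 FPKM in both libraries of a pair for Leaf and 19.2% for Callus I replicate 2, so these are rough estimates. The part of depth in the results was not tested.

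Leaf and Callus I differed in most of the genes that either tissue expressed. Limma called 16049 of 21394 genes (75.0%) at a Benjamini-Hochberg adjusted p under 0.05, with 8763 higher (41.0%) and 7286 lower (34.1%) in Leaf. In all 16049, both Leaf libraries lay on one side of both Callus I libraries. Of the genes not called, 2837 were also separated in this way, so groups without overlap made up 88.3% of all genes tested. The median log2 difference over all genes was 0.135. Median-ratio scaling of the libraries moved it to 0.095, and scaling to equal FPKM sums, taken without the 100 highest genes, moved it to 0.216. The share of calls that were higher was 54.6%, against 53.2% and 57.2% under these scalings. With 2 libraries per group a permutation test cannot give a 2-sided p below 0.333, so each call rests on the variance that limma shares across genes and groups. The labels call the replicates biological and do not say whether they were separate cultures, so part of their spread may be technical.

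Many of the differences were very large. Changes of 2-fold or more on the log2(FPKM + 1) scale were called for 5809 genes that rose (27.2%) and 5080 that fell (23.7%). At 8-fold or more, 1513 genes rose (7.07%) and 1450 fell (6.78%), and with a pseudocount of 0.1 FPKM in place of 1 these counts were 3162 and 2553. A further 2954 genes rose and 2206 fell by less than 2-fold. Of the 5345 genes not called, 79 differed by 2-fold or more and 3204 by less than 1.2-fold. The median standard error of a log2 difference was 0.165 among called genes and 0.171 among the others, where the median absolute difference was 0.22.

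**Figure D1:**
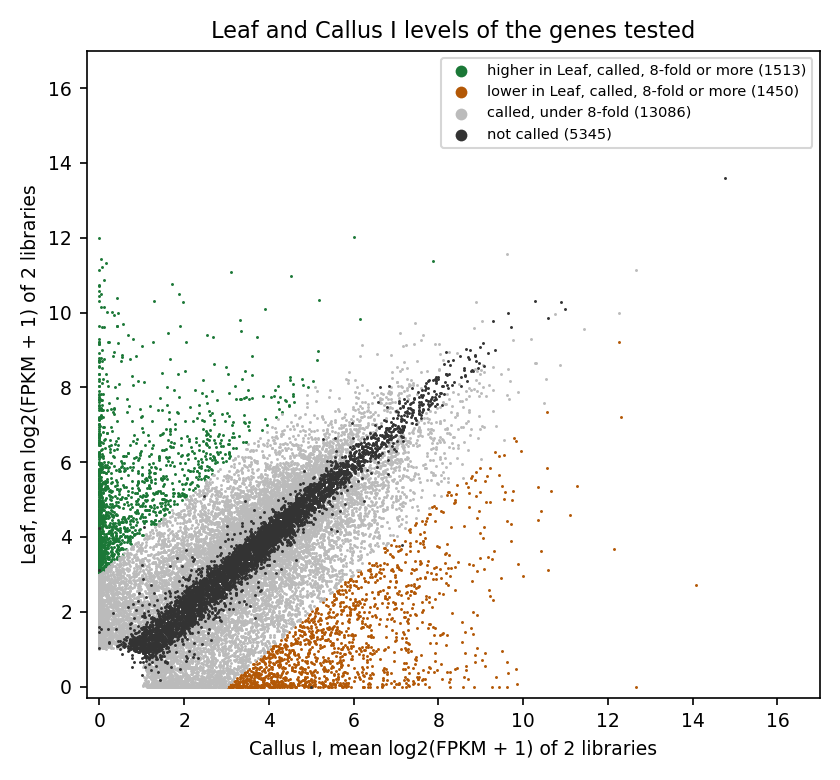
Mean log2(FPKM + 1) of the 2 Leaf libraries (vertical axis) against that of the 2 Callus I libraries (horizontal axis), 1 point per gene tested. The 1513 genes that rose 8-fold or more lie above the diagonal band that most of the 5345 genes not called form, and the 1450 that fell 8-fold or more lie below it.

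Among the genes that rose, the largest difference was that of Sobic.009G234600.v3.2 (chromosome 9, 57389228 to 57390570). It stood at 3652 and 4618 FPKM in Leaf and was listed at 0 in both Callus I libraries, so no fold is given (limma adjusted p = 7.44e-08). It was also listed at 0 in Callus II, and Callus III held 0.465 and 0.639 FPKM. The gene was thus abundant in the leaves and near the bottom of the scale in all 6 callus libraries. Next came Sobic.010G241000.v3.2 (chromosome 10, 58267930 to 58269475), whose locus matches the RefSeq protein-coding gene LOC110430997. It reached 2685 and 2858 FPKM in Leaf, against 0 and 0.068 in Callus I. The log2 difference was 11.39 ± 0.33 (SE, n = 2 per group; limma adjusted p = 2.55e-07). It was at 2.44 and 0.574 FPKM in the Callus II libraries and at 0.148 and 0.108 FPKM in those of Callus III, so no callus library came near either Leaf library.

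The order of genes that fell began with Sobic.002G349300.v3.2. Its locus is only 174 bp long (chromosome 2, 71409007 to 71409180), and FPKM gives much weight to so short a locus. Both Leaf libraries listed it at 0, and the Callus I libraries had 8647 and 4906 FPKM (limma adjusted p = 9.44e-08, no fold given). Callus II had 833.8 and 804.3 FPKM and Callus III 308.4 and 295.3, so all callus libraries held it and Callus I held the most. Sobic.005G099000.v3.2 followed (chromosome 5, 16194573 to 16195808), at the locus of the RefSeq protein-coding gene LOC8060060. It had 5.31 and 5.75 FPKM in Leaf, against 14978 and 19778 FPKM in Callus I. The log2 difference was -11.36 ± 0.28 (SE, n = 2 per group; limma adjusted p = 1.63e-07). Callus II lay between, at 2667 and 3854 FPKM, as did Callus III at 1205 and 1735. Both genes that fell were therefore graded over the 3 callus types, while both that rose stayed at or below 2.44 FPKM in all of them.

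**Figure D2:**
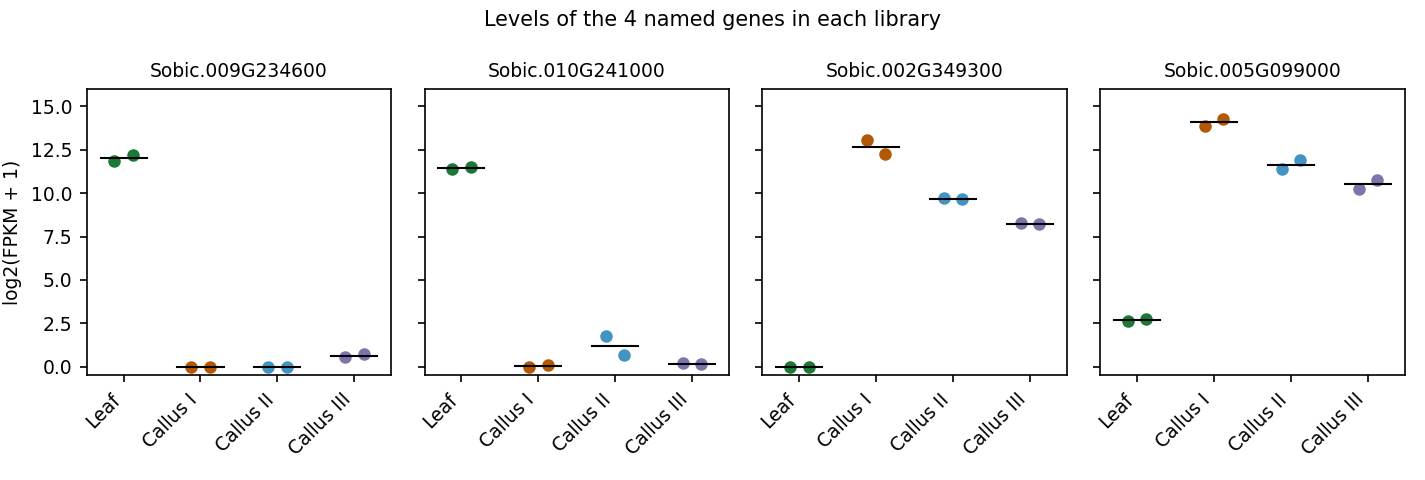
Level of the 4 named genes in each of the 8 libraries as log2(FPKM + 1), 1 point per library with a line at the mean of the 2 libraries of a group. The 2 genes on the left were high in Leaf alone, and the 2 on the right were highest in Callus I with Callus II and Callus III below it.

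In Callus II and Callus III, the median levels of the genes that rose and of those that fell 8-fold or more lay between those of Leaf and Callus I. For the 1513 genes that rose, the median level was 31.1 and 31.5 FPKM in Leaf and 0.207 and 0.146 in Callus I. The same genes had medians of 1.12 and 0.857 FPKM in Callus II, with 1.87 and 2.28 FPKM in Callus III. For the 1450 genes that fell, the median was 0.785 and 0.81 FPKM in Leaf and 45.3 and 40.6 in Callus I. Their medians were 6.10 and 6.99 FPKM in Callus II, with 3.05 and 4.11 FPKM in Callus III. The levels of Leaf and Callus I chose these genes and are a description. The levels of Callus II and Callus III were not part of the rule, but their replicates entered the variance behind each call. Choosing genes far apart in Leaf and Callus I also favours a place between them for other tissues.

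On a scale from 0 at the Callus I mean to 1 at the Leaf mean (log2(FPKM + 1) values), the genes that fell 8-fold or more had a median place of 0.596 in Callus II and 0.764 in Callus III. Callus III was nearer to Leaf than to Callus I for 1071 of these 1450 genes (73.9%), and Callus II for 844 (58.2%). For the 1513 genes that rose 8-fold or more, the median place was 0.077 in Callus II and 0.171 in Callus III. Callus III was nearer to Leaf for 341 of them (22.5%), and Callus II for 246 (16.3%). The median places of Callus II and Callus III were thus toward the low end in both sets. The choice of genes favours such places, since each set was picked for a high level in 1 tissue. For genes that rose by 2-fold to under 8-fold, the median place was 0.258 in Callus II and 0.23 in Callus III. For those that fell by 2-fold to under 8-fold, it was 0.493 and 0.759. No test was made of these places.

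**Figure D3:**
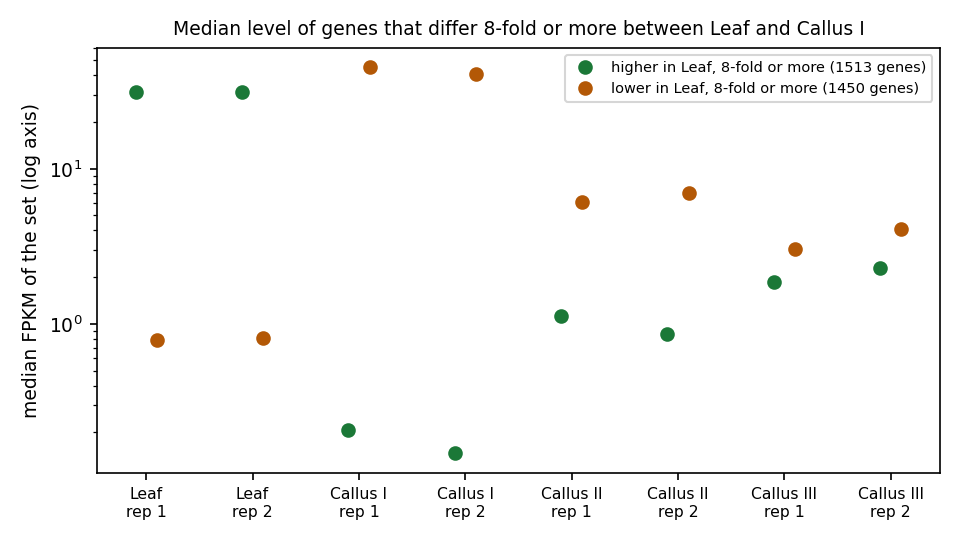
Median FPKM (log axis) in each library of the 1513 genes that were 8-fold or more higher in Leaf and of the 1450 that were 8-fold or more lower, 1 point per library and set. The genes that fell had medians of 3.05 to 6.99 FPKM in Callus II and Callus III, and those that rose 0.857 to 2.28.

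These 2 sets took up a large part of the transcript pool of their tissue. Genes that rose 8-fold or more held 26.1% and 26.5% of the FPKM sum in Leaf and 0.4% in each Callus I library. Genes that fell 8-fold or more held 1.0% in each Leaf library and 28.1% and 29.4% in Callus I. The choice of these genes by their difference between Leaf and Callus I favours such a contrast. The genes that rose made up 1.9% of the sum in each Callus II library, and those that fell 8.7% and 11.5%. In Callus III the shares were close to each other, at 6.8% and 6.4% for the genes that rose and 7.2% and 7.4% for those that fell. Since FPKM weights short loci more, shares of reads may differ from these.

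A switch between clear presence and near absence was seen in both directions. At 10 FPKM or more in both Leaf libraries and under 1 FPKM in both Callus I libraries were 862 genes, of which 251 were listed at 0 in both Callus I libraries. Their mean in Leaf was at least 100 FPKM for 134 genes and at least 1000 FPKM for 18. Of the 862 genes, 382 were under 1 FPKM in Callus II and Callus III as well. Both Callus III libraries reached 10 FPKM for 105 of them and both Callus II libraries for 59, with 29 genes shared by these counts. So 32 genes were high in Leaf and Callus III and under 1 FPKM in Callus I and Callus II, while no gene was high in Leaf and Callus II and under 1 FPKM in Callus I and Callus III (0 genes).

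The opposite pattern was found for 616 genes, which stayed under 1 FPKM in both Leaf libraries while both Callus I libraries reached 10 FPKM. Of these, 70 were listed at 0 in both Leaf libraries. Their mean in Callus I was at least 100 FPKM for 97 genes and at least 1000 FPKM for 1. The rough estimates put the Leaf libraries deeper than those of Callus I. The part of depth in the counts at 0, here and for the genes high in Leaf, was not tested. Among the 616 genes, 124 were under 1 FPKM in the other callus types too, and 55 were at 10 FPKM or more in all 6 callus libraries. Callus II held 167 of the 616 at 10 FPKM or more in both libraries, against 78 in Callus III. The others lay between the limits or differed between replicates in at least 1 of these types.

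The most abundant transcripts were largely different in the 2 tissues. Of the 100 genes with the highest mean in Leaf (478.2 FPKM or more) and the 100 highest in Callus I (533.2 FPKM or more), 20 were in both sets, which is 20% of each. Among the Leaf set, 38 had a mean under 1 FPKM in Callus I, 60 were called higher by 8-fold or more, and 16 were not called. Among the Callus I set, 12 had a mean under 1 FPKM in Leaf, 58 were called lower by 8-fold or more, and 13 were not called. The choice of these genes by level favours such directions.

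The gene with the highest mean was the same in both tissues, a locus of 247 bp, Sobic.004G211866.v3.2 (chromosome 4, 56151997 to 56152243), named here after its values were seen. It had 15603 and 10023 FPKM in Leaf and 29482 and 26264 FPKM in Callus I. The log2 difference was -1.15 ± 0.98 (SE, n = 2 per group; limma adjusted p = 0.314). The Callus II libraries stood at 15367 and 5113 FPKM, and those of Callus III at 52262 and 52732 FPKM. Both Leaf libraries lay below both Callus I libraries, but the difference did not pass the test. The standard error draws on the spread within all groups of the series, and the Callus II replicates were the farthest apart.

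Some abundant genes had almost the same level in leaf and callus. Within 1.1-fold and not called were 1737 genes, of which 944 had a mean of at least 10 FPKM over the 4 libraries and 76 at least 100 FPKM. The highest of them was Sobic.001G191200.v3.2 (chromosome 1, 16957390 to 16959965), named after its values were seen. It stood at 1256 and 1283 FPKM in Leaf and 1229 and 1276 FPKM in Callus I. The log2 difference was 0.02 ± 0.19 (SE, n = 2 per group; limma adjusted p = 0.934). Callus II had 496.4 and 489.3 FPKM and Callus III 795 and 602.8, so the gene was not steady over the series. A missed threshold does not show that levels were equal.

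Neighbouring genes were compared for direction. Over all possible pairs of called genes on the chromosomes, 50.4% had the same direction. Among loci next to each other along a chromosome with both genes called, the direction was the same in 371 of 543 overlapping pairs (68.3%). It was the same in 1566 of 2682 pairs within 2 kb (58.4%) and in 2846 of 4920 pairs farther apart (57.8%). Reads may have been shared between overlapping loci, and whether strand was used in counting is not given in the sources used here. Stretches of at least 5 neighbouring tested genes, all called in 1 direction at 2-fold or more, numbered 69 with higher and 52 with lower levels in Leaf. They held 405 of the 5809 genes that rose and 307 of the 5080 that fell within the same limits. These made up 27.2% and 23.7% of all genes tested. No test of these shares or of the number of stretches was made. The number depended on the filter, under which a gene expressed in 1 tissue alone entered only if it differed. With no filter on low values there were 27 higher and 19 lower stretches, and a limit of 5 FPKM on the mean of the 4 libraries left 17 and 29.

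The longest stretch that was higher in Leaf held 11 of the 14 loci on chromosome 4 from 64103336 to 64240721 (137.4 kb), and 4 of the 11 overlapped another locus. Its median level was 18.3 and 16.2 FPKM in Leaf and 0.638 and 0.457 in Callus I, with log2 differences from 1.07 to 4.65. Callus II had medians of 2.89 and 2.06 FPKM and Callus III 1.5 and 1.96. The last gene, at 64240122 to 64240721, was uneven between replicates, with 24.9 and 8.42 FPKM in Leaf and 0 and 18.1 in Callus III. Its log2 difference was 3.96 ± 1.28 (SE, limma adjusted p = 0.0252), so the length of this stretch rests in part on a weak call. On chromosome 6, 10 tested neighbours from 842683 to 1235317 were higher in Leaf, among 32 loci in that stretch. Their median was 9.90 and 9.23 FPKM in Leaf and 0.0468 and 0.0662 in Callus I. The gene with the largest difference there, at 1082714 to 1083434, had 617.1 and 630 FPKM in Leaf and was listed at 0 in both Callus I libraries. On chromosome 7, 9 tested neighbours among the 17 loci from 39076275 to 39858350 had medians of 36.8 and 39.2 FPKM in Leaf and 2.15 and 2.80 in Callus I. All 3 stretches were thus expressed in Leaf and lower in Callus I, and none of them was silent there at every gene. On chromosome 6, the gene at 1231442 to 1235317 had 1.79 and 1.37 FPKM in Callus I.

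Of the stretches that were lower in Leaf, the longest held 13 of the 16 loci on chromosome 7 from 7229329 to 7504361 (275.0 kb). Its median was 0.112 and 0.0691 FPKM in Leaf and 12.4 and 5.0 in Callus I, with log2 differences from -3.78 to -1.22. The median log2 difference was -2.52. Leaving out Callus I replicate 1 made it -2.04, and leaving out replicate 2 made it -3.01. Several loci of this stretch had similar values to each other within a library. The loci at 7229329 to 7230366 and 7284909 to 7285941, for example, had 20.3 and 22.1 FPKM in Callus I replicate 1 and 7.14 and 8.01 FPKM in replicate 2. Whether reads were shared between similar copies was not tested. On chromosome 5, 9 tested neighbours among the 25 loci from 10991903 to 11339028 had medians of 0.0306 and 0 FPKM in Leaf and 22.9 and 18.7 in Callus I. The locus with the largest difference there, at 11038374 to 11040287, had no FPKM above 0 in Leaf and 157.9 and 124.3 FPKM in Callus I. It overlaps the next locus. A stretch of 9 tested genes among 13 loci on chromosome 3, between 72980917 and 73032877, spans 52.0 kb. Its median was 0.76 and 0.764 FPKM in Leaf and 41.7 and 31.1 FPKM in Callus I. Callus II had medians of 7.49 and 5.07 FPKM there and Callus III 11.8 and 10.6. In the other 2 stretches, the medians of these types were at most 0.117 FPKM. The contrast holds for medians and not for every gene. On chromosome 5, the locus at 11337555 to 11339028 was highest in Callus II (12.3 and 10.4 FPKM). Its Callus III values were 4.34 and 4.3, above 3.1 and 2.63 in Callus I. On chromosome 7, the locus at 7408639 to 7412054 stood at 3.23 and 3.76 FPKM in the Callus III libraries. On chromosome 3, the locus at 72994408 to 72996328 was listed at 0 in both Callus III libraries.

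**Figure D4:**
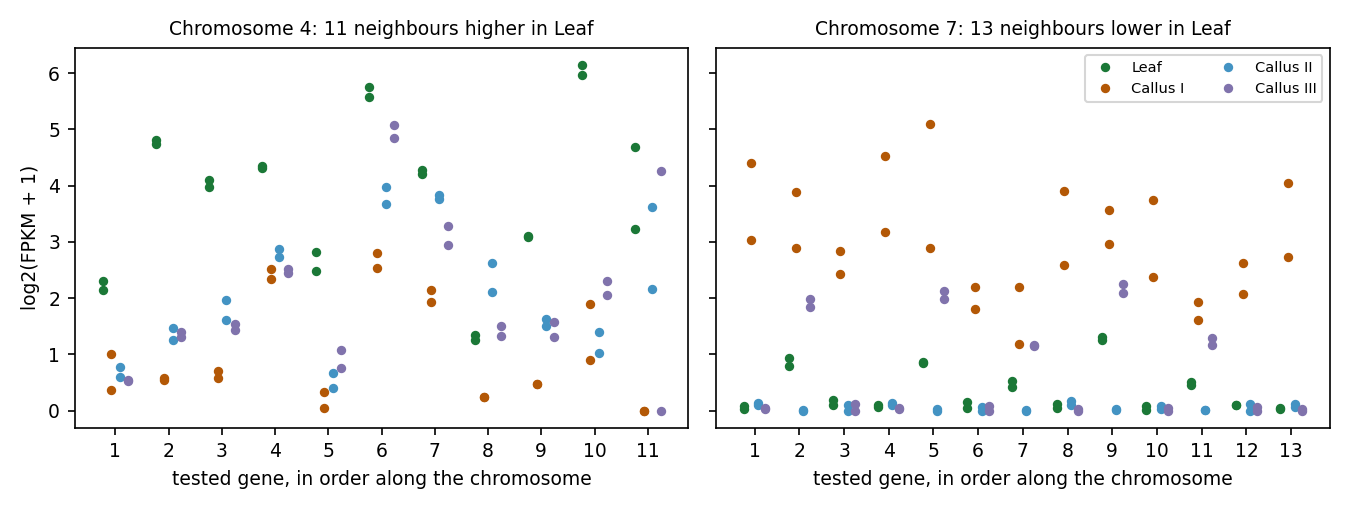
Levels as log2(FPKM + 1) of each gene, in order along the chromosome, in the longest stretch that was higher in Leaf (left, 11 genes on chromosome 4) and the longest that was lower (right, 13 genes on chromosome 7), 1 point per library. In the left panel the Leaf points lie above the Callus I points at every gene, and in the right panel the Callus I points lie above the Leaf points at every gene.

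The share of genes that rose or fell changed with the length of the locus. Of 2149 tested loci of 8000 bp or more, 49.6% rose and 19.8% fell in Leaf. Of 7124 loci of 4000 to 7999 bp, 45.2% rose and 26.9% fell. In loci of 1000 to 1999 bp (3249 genes) 36.0% rose and 47.5% fell, and in the 1222 loci of 500 to 999 bp 33.6% rose and 46.2% fell. The median log2 difference was 0.38 in the longest class and -0.48 at 500 to 999 bp. Both scalings gave the same order, with medians of 0.34 and -0.51 after median-ratio scaling and 0.45 and -0.4 with equal sums. The spread was wider in genes that averaged 20 FPKM or more over the 4 libraries, from 0.47 in 689 loci of 8000 bp or more to -1.51 in 287 loci of 500 to 999 bp. Genes that fell 8-fold or more had a median locus length of 2092 bp, those that rose 8-fold or more 2893 bp, and all tested genes 3606 bp.

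Locus length also went with differences between the Callus I replicates, though these were smaller than those between Leaf and Callus I. The median of Leaf replicate 1 minus replicate 2 was 0.02 in loci of 8000 bp or more and 0 at 500 to 999 bp. For Callus I replicate 1 minus replicate 2 it was -0.06 and 0.09 in these classes. In genes that averaged 20 FPKM or more over the 4 libraries, the Callus I medians were -0.13 and 0.17. Over all tested loci of 500 to 999 bp the median level as log2(FPKM + 1) was 1.86 and 1.90 in Leaf and 2.43 and 2.14 in Callus I. Callus II had 1.65 and 1.73 there and Callus III 1.44 and 1.66, so both Callus I libraries were highest. Genes entered by their Leaf and Callus I levels alone, which favours lower medians in Callus II and Callus III. In loci of 8000 bp or more the median was 3.90 and 3.88 in Leaf and 3.44 and 3.52 in Callus I. There the Callus II libraries had 3.80 and 3.74, and those of Callus III 3.26 and 3.49. The part of library preparation or RNA quality in this relation was not tested, and the length used is that of the whole locus with its introns.

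**Figure D5:**
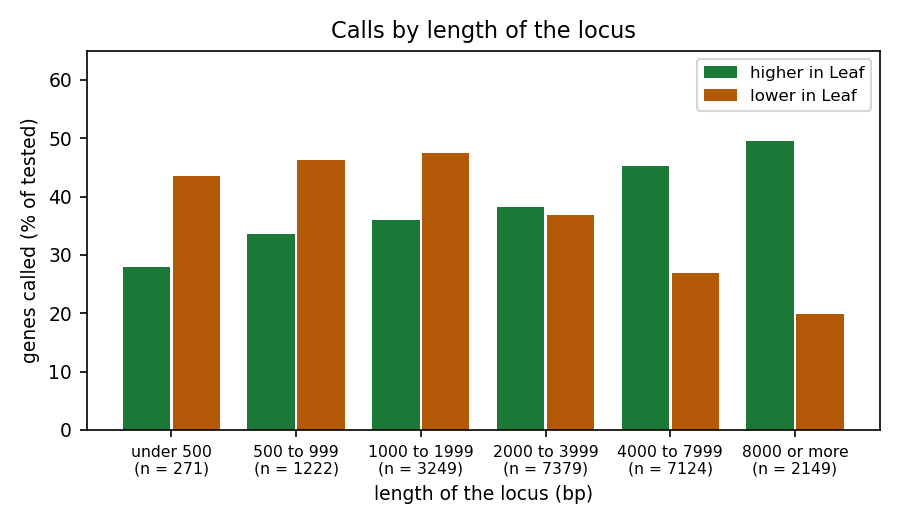
Genes called higher and lower in Leaf as a percentage of the genes tested in each class of locus length, with the number tested under each class. Bars for genes that rose grow from 28% under 500 bp to 49.6% at 8000 bp or more, and bars for genes that fell are at most 26.9% from 4000 bp upward.

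The calls were spread over all 10 chromosomes. The share of tested genes called ran from 73.0% on chromosome 6 to 78.5% on chromosome 8. The share that rose was 44.8% on chromosome 1 and 35.7% on chromosome 9, the ends of its range, and the share that fell ran from 30.4% on chromosome 6 to 38.4% on chromosome 9. Chromosome 9 had more genes that fell than rose. Chromosomes 2 and 3 also did after median-ratio scaling, and with equal sums no chromosome did, so this direction depends on the scaling. By distance from the chromosome end, the share that rose ran from 39.9% at 5 to 10 Mb to 41.5% at 10 to 20 Mb. The share that fell ran from 31.9% beyond 20 Mb to 35.9% at 5 to 10 Mb. Within 5 Mb of the first or last locus of a chromosome 41.2% of 7453 tested genes rose and 33.6% fell, and beyond 20 Mb 41.0% of 1854 rose and 31.9% fell.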

How the data were processed

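Per the file headers, the authors deposited 1 FPKM value per gene and library. Trimmomatic, TopHat2 2.0 and Cuffdiff are named, without roles, per the submitters' processing notes. The sources used here do not give genome build, settings or strand. Files were joined by identifier, and 1 was added to locus starts, which count from 0.

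The log2(FPKM + 1) values computed from these went into limma 3.58.1 (R 4.3.3), 1 mean per group over all 8 libraries, with a variance trend (prior degrees of freedom 2.89), 2-sided, and adjusted over 21394 genes. Fold changes on this scale understate those of low genes. The step was run on simulated data in which few genes differed and all groups had the same spread at a gene. The real data differ in both, so that run does not bear on the calls made here. Named genes were called, without overlap between groups, with at least 10 FPKM in the higher group, the largest 2 in each direction.

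No identifier occurred in the RefSeq gene table of Sorghum_bicolor_NCBIv3 (0 of 34129). By position, with at least 80% reciprocal overlap, 19798 loci (58.2%) matched 1 gene, and 574 did after a shift of 100 kb. No description was available, so the 26 gene lists had no members. Gene biotypes are not compared here, since matching was incomplete and differed with direction. A match was found for 71.3% of tested genes, for 74.9% of those that rose 8-fold or more and for 58.7% of those that fell 8-fold or more. The members and lists were chosen with earlier results of these data known. Depth is known only as the rough estimates in the text. Alternatives changed the pseudocount, filter, scaling, libraries, variance model, replicate block and loci.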

Additional observations from a re-analysis of the deposited data

How the results depend on the processing

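The number of genes called stayed within 1.5 times 16049 under all 16 alternatives, from 10854 to 18403, and from 13575 to 15752 when 1 library was left out. A stricter filter, which keeps genes averaging 5 FPKM or more over the 4 libraries, tested fewer genes (14463) and gave 5812 genes that rose, 3533 of them by 2-fold or more, and 6997 changes of 2-fold or more in all, with 75.0% of tested genes called. It gave 17 higher and 29 lower stretches of neighbours, and no filter on low values gave 27 and 19. A pseudocount of 0.1 FPKM, which shrinks low values less, gave 3162 genes that rose and 2553 that fell by 8-fold or more. The 4 named genes kept their direction and their call under every alternative that tested them. The loci under 500 bp include Sobic.002G349300.v3.2, which had no value without them. With the replicate number as a block (replicate block), 15803 genes were called. Deviations of same-numbered Leaf and Callus I libraries correlated at -0.111, so nothing shows that the numbers pair the samples. With the Leaf numbers exchanged, chosen after seeing the data, 15806 were called. The counts of stretches, of 8-fold changes, of 2-fold changes in 1 direction and of genes present in 1 tissue were also added after the data were seen. Counts of genes present in 1 tissue ran from 766 to 963 for Leaf and from 570 to 782 for Callus I. The gene lists had no values under any alternative. Depth is unknown beyond rough estimates, so counting error could not be given.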
